A study of Mus musculus with 4 samples.

Results

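RNA splicing and RNA-binding genes were examined in eosinophils sorted from the bone marrow and from the pleural cavity of wild-type mice that carried LLC tumor cells, a line derived from mouse Lewis lung carcinoma. The genes were chosen by symbol, as the members of the Srsf, Snrp, Snrnp, Hnrnp, Sf3a, Sf3b, Prpf, Rbm, Lsm, U2af, Zc3h, Zfp36, Elavl, Pabp, Cpsf and Cstf families that the deposited table of differentially expressed genes lists. They came to 47 of the 5807 listed genes. In the mouse annotation (GENCODE M21, GRCm38) 177 protein-coding genes match these families, so 130 have no value here. The table lists only genes that the study's own comparison of the tissues had selected, by p-value and by a change over 2-fold. An unlisted gene has no direction. The ratios below were computed anew from the mean reads, and a listed gene can lie within 2-fold here.

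In both tissues the mice were wild type (WT), 6 to 8 weeks old, and the cells were taken 2 days after the LLC cells were placed in the pleural space. There were 2 bone marrow and 2 pleural cavity libraries. Bone marrow eosinophils were sorted as CD45+ SiglecF+ cells with high side scatter, after magnetic enrichment with an antibody to the antigen that Adgre1 encodes. The pleural cavity gate also required CD11b and that antigen, and it left out CD11c+ and Gr1-high cells, so tissue and gate cannot be told apart. The study's methods take both tissues from mice with effusions, while its text calls the bone marrow cells naïve. Nothing says whether the libraries of a tissue came from separate mice. Only the mean reads of each tissue were analysed, with no value per library. No spread between replicates, no standard deviation and no test could therefore be computed for a gene, and every statement of higher or lower is a description of 2 means. Summed over all listed genes, the mean reads came to 15947438 in the pleural cavity and 11762543 in the bone marrow. Each mean was divided by its own sum before a ratio was taken, and the log2 ratio is that of pleural cavity over bone marrow. Intervals are exact 95% intervals of the ratio of the read totals, which cover counting error only.

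Most mouse genes are interrupted by introns, which the spliceosome removes from the nascent transcript. This machine is built from small nuclear ribonucleoproteins (snRNPs), whose RNAs sit in rings of Sm or Lsm proteins, and is guided by SR proteins, which generally favour the inclusion of an exon, and by hnRNP proteins, which often oppose it. Other RNA-binding proteins set the later life of the transcript, and cleavage factors and poly(A) binding proteins form and cover its tail. Some CCCH zinc finger proteins, those of the Zfp36 family among them, and Elavl proteins control transcript decay. Eosinophils complete their development in the bone marrow and enter tissues as cells that no longer divide.

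Among SR, hnRNP, Lsm, Sm and other snRNP genes 16 of 19 were lower (84.2%, where 57.5% of all listed genes were). Their median log2 ratio was -0.85, and the exceptions were Srsf5, Snrpb and Lsm10. Beyond 2-fold, 8 of the 19 were lower (42.1%), beside 50.5% of all listed genes. All 19 had at least 100 mean reads in one tissue. Of listed genes with as many reads, 46.9% were lower and 38.0% were over 2-fold lower. The order beyond 2-fold thus depends on which listed genes are compared. Among the other 28 members, 15 were higher (53.6%) and 13 lower. Of all listed genes 42.5% were higher, and 53.1% of those with at least 100 mean reads in one tissue, which not all 28 reached. The higher members of this group were mainly Rbm, Zc3h and Prpf genes. The spliceosome genes Sf3b2, Prpf18 and Prpf39 are among these, and the first group holds Lsm10, which acts outside splicing. This division into 2 groups was made after the values were seen. Taken as a whole, 18 of the 47 members were higher, a share of 38.3%, when 42.5% of all listed genes were. Beyond 2-fold, 3 members were higher and 19 lower (6.38% and 40.4%), when the shares over all listed genes were 16% and 50.5%. When the scaling instead put the median of well-read genes (those reaching 1000 mean reads in each tissue) at 0, 61.7% of the members and 57.3% of all listed genes were over 2-fold lower, so the order of these shares depends on the scaling. The median log2 ratio of the members was -0.77, and that of all listed genes was -1.02. Among genes with at least 100 mean reads in one tissue the medians were -0.74 and 0.34, in the opposite order.

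Within 2-fold lay 25 members (53.2%) and 33.4% of all listed genes. With the median of well-read genes set to 0, these shares were 34.0% and 33.7%. The members were also among the better-read genes, with medians of 962 mean reads in the pleural cavity and 858 in the bone marrow, against 472 and 488 over the whole table. In sum the 47 genes took 0.693% of the listed reads in the pleural cavity and 0.776% in the bone marrow. Of the 47, 11 had mean reads that are not a multiple of 0.5 in one tissue or both, which happens when the read estimation divides reads between similar genes. These were Cstf2, Hnrnpa1, Hnrnpa3, Lsm6, Prpf18, Prpf39, Rbm12b1, Rbm48, Snrpa, Zc3h12a and Zc3hav1, and their values are uncertain to that extent.

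**Figure D1:**
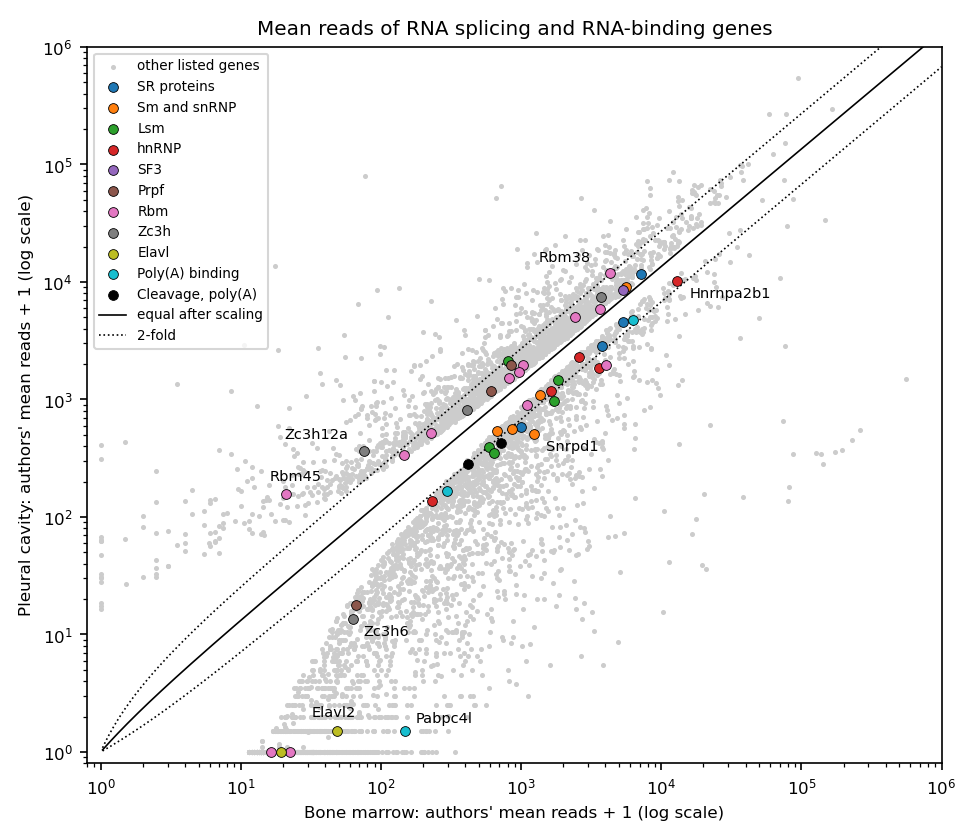
Mean reads plus 1 of each listed gene in bone marrow (horizontal, log scale) and pleural cavity eosinophils (vertical, log scale), with the 47 members coloured by sub-family and the other listed genes in grey; the solid line marks equal scaled reads and the dotted lines a 2-fold difference. Between the dotted lines lie 25 members, 5 lie at the bottom with at most 1 mean read in the pleural cavity, and listed genes with few reads lie farther from the line.

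The scaling decides where 0 lies, and this bears on every direction given here. Among the 1524 listed genes that reached 1000 mean reads in each tissue, the widest stretch of log2 ratios without any gene ran from -0.47 to 0.18, and the table lists no such gene there. Setting the middle of that stretch to 0 raised every log2 ratio by 0.14, and no scaling at all raised them by 0.44. With either, 18 members stayed higher and 29 lower, as they did when the 20 best-read genes of each tissue were left out of the sums. With the median of these 1524 well-read genes set to 0, all log2 ratios dropped by 0.44, and Rbm26, Rbm5, Sf3b2, Snrpb and Srsf5 changed from higher to lower.

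Upstream sequences of a few members are shown because they belong to genes at the 2 ends of the range, Rbm45 and Zc3h12a having the highest ratios and Hnrnpa1 and Srsf1 being among the 10 lowest with at least 100 mean reads in one tissue. Each is the stretch of 120 bases before the start of the gene in RefSeq, build GRCm38.p6, read 5′ to 3′ on the strand of the gene. Capitals mark motifs found on either strand. The motif of ETS factors was searched as CCGGAAG. The GC box that Sp1 binds was searched as GGGCGG. The CCAAT box has its letters in its name. An E-box, bound by factors such as Myc, was searched as CACGTG. The letters taken for a TATA box were TATAAA. No motif contains another, though neighbours may share bases.
Rbm45, chr2:76369864-76369983, plus strand: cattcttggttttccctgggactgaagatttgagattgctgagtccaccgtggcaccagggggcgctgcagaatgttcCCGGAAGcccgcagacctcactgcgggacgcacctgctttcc
Zc3h12a, chr4:125127882-125128001, minus strand: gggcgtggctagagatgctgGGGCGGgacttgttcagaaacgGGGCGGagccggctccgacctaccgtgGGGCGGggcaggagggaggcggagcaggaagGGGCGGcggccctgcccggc
Hnrnpa1, chr15:103240277-103240396, plus strand: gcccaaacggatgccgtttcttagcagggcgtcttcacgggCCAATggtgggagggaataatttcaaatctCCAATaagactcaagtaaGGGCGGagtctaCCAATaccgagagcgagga
Srsf1, chr11:88047253-88047372, plus strand: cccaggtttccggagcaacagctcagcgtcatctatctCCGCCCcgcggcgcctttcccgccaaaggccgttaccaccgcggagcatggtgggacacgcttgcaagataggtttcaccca

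Over the 250 bases before the start, 37 of the 47 members had a sequence, 14 higher and 23 lower. The CCAAT box was present in 7 of the 14 and 13 of the 23, and in 38.7% of the 4673 listed genes and 34.5% of all 27025 genes with a promoter sequence. A GC box stood in 5 of the 14 higher and 12 of the 23 lower members, in 51.9% of the listed and 32.9% of all genes. The ETS motif was found in 4 of the 14 higher members, Rbm45 among them, and 1 of the 23 lower ones, where 10.8% of the listed genes and 7.05% of all genes held it. The E-box and the TATA box were each present in 1 of the 14 and 4 of the 23, with shares of 8.24% and 9.03% of the listed genes and 6.05% and 13.0% of all. These matches are a description and were not tested.

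SR proteins carry arginine and serine repeats and bind exonic enhancers, which helps the spliceosome choose its splice sites. Of 11 annotated Srsf genes 4 were listed, 3 lower and 1 higher, with a median log2 ratio of -0.76. Over all listed genes 57.5% were lower and the median was -1.02. Over listed genes with at least 100 mean reads in one tissue, which all 4 reached, 46.9% were lower and the median was 0.34. Srsf1 had 581.5 mean reads in the pleural cavity and 998.5 in the bone marrow, 2.33-fold lower in the pleural cavity after scaling (interval 2.16 to 2.50). Srsf3, with 2860 and 3803.5 mean reads, was 1.80-fold lower, and Srsf2, with 4574.5 and 5347.5, was 1.58-fold lower. Srsf5 went the other way, with 11736.5 and 7149 mean reads and a ratio of 1.21-fold higher, which turned to lower when the median of well-read genes was set to 0. The other 7 Srsf genes, Srsf7 among them, were not listed.

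All 5 listed hnRNP genes were lower in pleural cavity eosinophils, with log2 ratios from -1.40 to -0.61 and a median of -0.91, and they stayed lower under each scaling tried. Of all listed genes 57.5% were lower, with a median of -1.02. Of listed genes with at least 100 mean reads in one tissue, which all 5 reached, 46.9% were lower, with a median of 0.34. Hnrnpa2b1, which binds nascent transcripts and sorts some of them for transport, was the best-read member of the 47 in the bone marrow. It had 10208.5 mean reads in the pleural cavity and 12876.5 in the bone marrow, a log2 ratio of -0.77. Hnrnpa1, a repressor of exon inclusion, had 1864.6 and 3624.1 mean reads and a log2 ratio of -1.40 (interval -1.46 to -1.34). Its reads were divided with similar genes. Hnrnpll, known for its part in the alternative splicing of the CD45 transcript in lymphocytes, had 135 and 228.5 mean reads and was 2.29-fold lower. Hnrnph1 had the smallest difference, 1.52-fold lower. The annotation holds 20 Hnrnp genes, so 15 were not listed, Hnrnpk among them.

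Sm proteins form the ring around the spliceosomal RNAs other than that of U6. Of 19 annotated Snrp and Snrnp genes, 5 were listed, 4 lower and 1 higher, where 57.5% of all listed genes were lower. Beyond 2-fold, 2 of the 5 were lower, beside 50.5% of all listed genes. Of listed genes with at least 100 mean reads in one tissue, which all 5 reached, 38.0% were over 2-fold lower. Snrpd1, a core Sm protein encoded on chromosome 18 from 10617775 to 10642079, had the lowest ratio of the members among those with over 1000 mean reads in one tissue. It had 508.5 mean reads in the pleural cavity and 1233 in the bone marrow, 3.29-fold lower (interval 3.05 to 3.54). Snrpf, another core Sm protein, had 557.5 and 857.5 mean reads and was 2.09-fold lower. Snrpa, the U1 protein A, and Snrpa1, the U2 protein A′, were 1.71-fold and 1.69-fold lower. Snrpb, which encodes SmB, was the exception, with 9139.5 and 5580 mean reads and a log2 ratio of 0.27. Snrpb became lower when the median of well-read genes was set to 0.

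Lsm proteins form a like ring on the U6 RNA, and a related ring in the cytoplasm promotes decapping and decay. Lsm2, Lsm4, Lsm5 and Lsm6, all parts of the ring on U6 and also of the cytoplasmic ring, were lower. Of all listed genes 57.5% were lower, and 46.9% of those with at least 100 mean reads in one tissue. Lsm2 had 349.5 mean reads in the pleural cavity and 640.5 in the bone marrow and was 2.48-fold lower (interval 2.26 to 2.73), and Lsm6, whose reads were divided, was 2.40-fold lower with 962.3 and 1705.6. Lsm4 and Lsm5 were 1.70-fold and 2.03-fold lower. Lsm10 was higher, with 2140.5 and 803.5 mean reads and a ratio of 1.96-fold (interval 1.86 to 2.08). It is a part of the U7 snRNP, which trims the ends of histone transcripts and takes no part in splicing. The directions of the Lsm members were the same under each scaling tried.

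**Figure D2:**
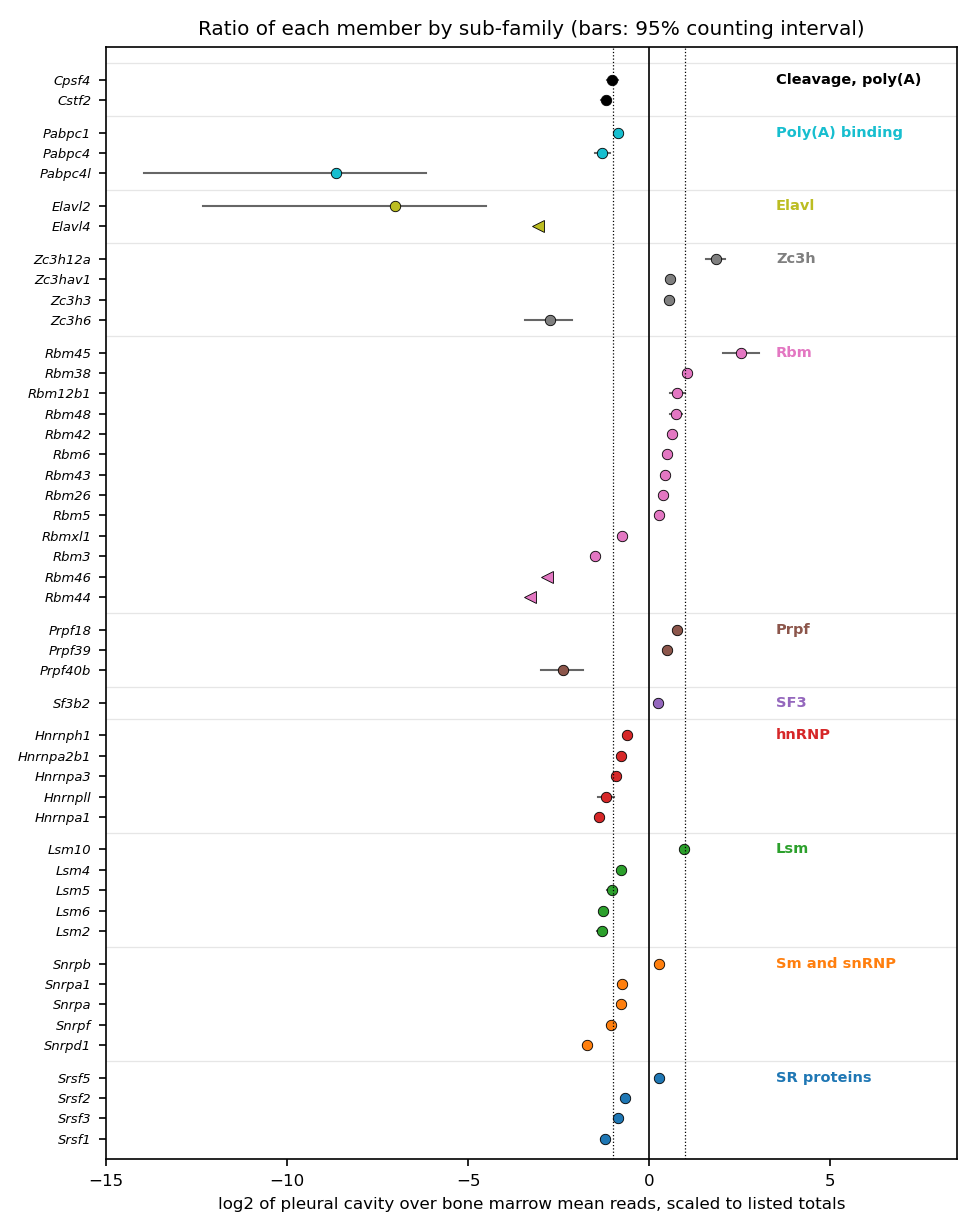
Log2 ratio of scaled mean reads, pleural cavity over bone marrow, of the 47 members by sub-family (horizontal), with 95% counting intervals as bars and triangles at the bound for the 3 genes with 0 reads in the pleural cavity; dotted lines mark 2-fold. The hnRNP members all lie left of 0, from -1.40 to -0.61, and 9 of the 13 Rbm members lie right of it.

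Of the listed Prpf genes 2 were higher and 1 lower, where 42.5% of all listed genes were higher. Prpf18, a factor of the second catalytic step, had 1963.1 mean reads in the pleural cavity and 845.1 in the bone marrow and was 1.71-fold higher, with divided reads. Prpf39, which associates with the U1 snRNP, was 1.42-fold higher with 1172.4 and 610.5 mean reads, also divided. Prpf40b was lower, but on few reads, with 17 and 65.5 and a log2 ratio of -2.39 (interval -2.97 to -1.83). Sf3b2, a subunit of the complex that recognises the branch point, was the only one of 12 annotated Sf3a, Sf3b and U2af genes to be listed. It had 8568.5 and 5352 mean reads and a log2 ratio of 0.24, which turned to lower with the median of well-read genes set to 0. U2af1, U2af2 and Sf3b1 were not listed.

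The Rbm genes share an RNA recognition motif and otherwise differ in what they do. Of 43 annotated, 13 were listed, and 9 of these were higher, beside 42.5% of all listed genes. The median log2 ratio of the 13 was 0.44. All but Rbm44 and Rbm46 had at least 100 mean reads in one tissue. Of listed genes with as many reads, 53.1% were higher, with a median of 0.34. With the median of well-read genes set to 0, the Rbm median was 0.00084, with Rbm5 and Rbm26 turning to lower. Rbm45, on chromosome 2 from 76369984 to 76383768, had the highest ratio of all members. It had 156.5 mean reads in the pleural cavity and 20 in the bone marrow and was 5.77-fold higher (interval 4.14 to 8.24). This protein is known mainly from the nervous system. Rbm38, which binds the transcript of the cell cycle inhibitor p21 and is a target of p53, had the most pleural cavity reads of the members, with 11990.5 and 4292.5 mean reads. Its ratio was 2.06-fold higher (interval 2.01 to 2.11), which lies on the 2-fold threshold. Rbm12b1 and Rbm48, both with divided reads, were 1.72-fold and 1.67-fold higher, and Rbm48 is known to act in the splicing of minor introns. Rbm42 had 5062.5 and 2417 mean reads and was 1.54-fold higher.

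Rbm5 and Rbm6 are neighbours on chromosome 9 and encode related regulators of alternative splicing. Their log2 ratios were 0.26 and 0.49, those of Rbm43 and Rbm26 were 0.44 and 0.39. The lower Rbm genes were led, among those with reads in both tissues, by Rbm3, a protein induced by cold and mild stress. Rbm3 had 1966.5 mean reads in the pleural cavity and 4051.5 in the bone marrow, 2.79-fold lower (interval 2.69 to 2.90). Rbmxl1 was 1.67-fold lower.

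Of the CCCH zinc finger genes, 4 of 19 annotated Zc3h genes and none of the 3 Zfp36 genes were listed. Zc3h12a, or Regnase-1, is an endonuclease that cuts cytokine transcripts, and it lies on chromosome 4 from 125118423 to 125127840. It had 361.4 mean reads in the pleural cavity and 74.5 in the bone marrow, 3.58-fold higher (interval 3.0 to 4.30), and stayed higher under each scaling tried, although its reads were divided. Zc3hav1, the zinc finger antiviral protein, had 7446.3 and 3692.6 mean reads, again divided, and a ratio of 1.49-fold higher. Zc3h3, which acts in the export of polyadenylated transcripts, was 1.47-fold higher with 821 and 413 mean reads. Zc3h6 was lower, on 12.5 and 62 mean reads, with a log2 ratio of -2.75. Zfp36, Zfp36l1, Zfp36l2 and Elavl1 were not listed.

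The 5 listed Pabp, Cpsf and Cstf members were all lower, as were 57.5% of all listed genes. Pabpc1, the main cytoplasmic poly(A) binding protein, had 4716 mean reads in the pleural cavity and 6276.5 in the bone marrow, 1.80-fold lower (interval 1.76 to 1.85). Pabpc4, an inducible relative of Pabpc1, was 2.45-fold lower, with 164 and 296 mean reads. Cpsf4, a subunit that reads the polyadenylation signal, had 279.5 and 417 mean reads and was 2.02-fold lower. Cstf2, which binds downstream of the cleavage site, had 423 and 716.3 mean reads, with reads divided, and was 2.30-fold lower. Of 9 annotated Pabp genes and 11 Cpsf and Cstf genes, 3 and 2 were listed, and Cpsf6 was not among them.

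Reads on 5 members came almost entirely from the bone marrow. Elavl2 and Elavl4 encode neuronal Hu proteins, and Rbm44 and Rbm46 are known from germ cells. Pabpc4l had 0.5 mean reads in the pleural cavity and 147.5 in the bone marrow, a log2 ratio of -8.64 that rests on a single pleural cavity read (interval -13.95 to -6.15). Elavl2 had 0.5 and 47.5 mean reads, a log2 ratio of -7.01 on as few reads (interval -12.33 to -4.50). Elavl4, Rbm44 and Rbm46 had 0 mean reads in the pleural cavity and 18.5, 21.5 and 15.5 in the bone marrow. When 3 reads per library are taken as the floor, they were at least 8.36-fold, 9.72-fold and 7.0-fold lower. No pleural cavity reads were recorded for 12.0% of the table and 6.38% of the members. With the genes under 100 mean reads in both tissues left out, 18 members of 41 were higher (43.9%), when 53.1% of the 4544 remaining listed genes were.

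Levels can be compared between genes only per length of transcript. In reads per kilobase of the longest annotated transcript and 1000000 listed reads, Snrpb and Rbm38 had the highest levels of the members in the pleural cavity, 335 and 330. With the longest protein-coding transcript as the length, the order in the pleural cavity was Snrpb at 494, Srsf5 at 469, Hnrnpa2b1 at 370 and Rbm38 at 363. In the bone marrow Hnrnpa2b1 and Snrpb stood highest, at 300.3 and 277. With the protein-coding length the levels of Hnrnpa2b1 and Snrpb in the bone marrow became 634 and 409, and that of Srsf5 moved from 175 to 388. With the median transcript length, computed for the named members, the bone marrow order was Hnrnpa2b1 at 704, Pabpc1 at 699, Sf3b2 at 480.0 and Snrpb at 414, so the places after the first depend on the length. Prpf40b and Zc3h6 had levels of 1.37 and 1.07 in the bone marrow, and Rbm45 had 0.896 there and 5.17 in the pleural cavity, so the member with the highest ratio had a low level in both tissues.

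A list of 183 further genes for splicing, export, 3′ end formation, decay and RNA modification held 50 listed genes, of which 22 were higher (44.0%, beside 42.5% of all listed genes and 53.1% of those with at least 100 mean reads in one tissue, which all but Adarb1 reached) and 28 lower, with a median log2 ratio of -0.66. In splicing 10 were higher and 13 lower. Ddx5, an RNA helicase, was by far the best-read of them, with 73332.9 mean reads in the pleural cavity and 38508.8 in the bone marrow and a log2 ratio of 0.49. The kinases that phosphorylate SR proteins were listed 4 times. Clk1, Clk3 and Srpk2 had log2 ratios of 0.62, 0.39 and 0.44, and Srpk1 had -0.89. Genes that act in the assembly of snRNPs were not alike. Gemin2 had a log2 ratio of 1.39 and Smn1 and Prmt5 had -1.63 and -0.84, with reads divided for Gemin2 and Smn1.

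The largest ratios in that list, among genes with at least 100 mean reads in one tissue, were all lower. Igf2bp2, which binds and stabilises transcripts, had 6.5 mean reads in the pleural cavity and 184.5 in the bone marrow, a log2 ratio of -5.27. Stau2, which binds double-stranded RNA, had -2.54, and Dkc1, the pseudouridine synthase of small nucleolar RNPs, had -1.86. Ppil1, a cyclophilin of the spliceosome, had -1.77, and Smn1 came next. In the decay group 5 were higher and 8 lower, among them Rc3h1, or Roquin-1, with a log2 ratio of 0.68 and divided reads, and the deadenylase subunits Cnot8 and Cnot7 with 0.33 and -1.23. Export and exon junction genes were higher in 2 and lower in 4 cases. Of genes that act on the m6A mark, the YTH readers Ythdf2 and Ythdf3 and the eraser Alkbh5 had log2 ratios of 0.36, 0.32 and 0.58, and Igf2bp2, also known as a reader, had the -5.27 given above. With the median of well-read genes set to 0, 11 of the 50 were higher in place of 22, and genes with log2 ratios under 0.44 changed direction. In this list, genes beyond the 5 largest ratios were named after their values were seen, as were Hnrnpa3, Lsm4, Lsm5, Prpf39, Rbm5, Rbm6, Rbm26, Rbm43, Rbm46, Rbmxl1, Snrpa, Snrpa1 and Snrpf among the members.

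**Figure D3:**
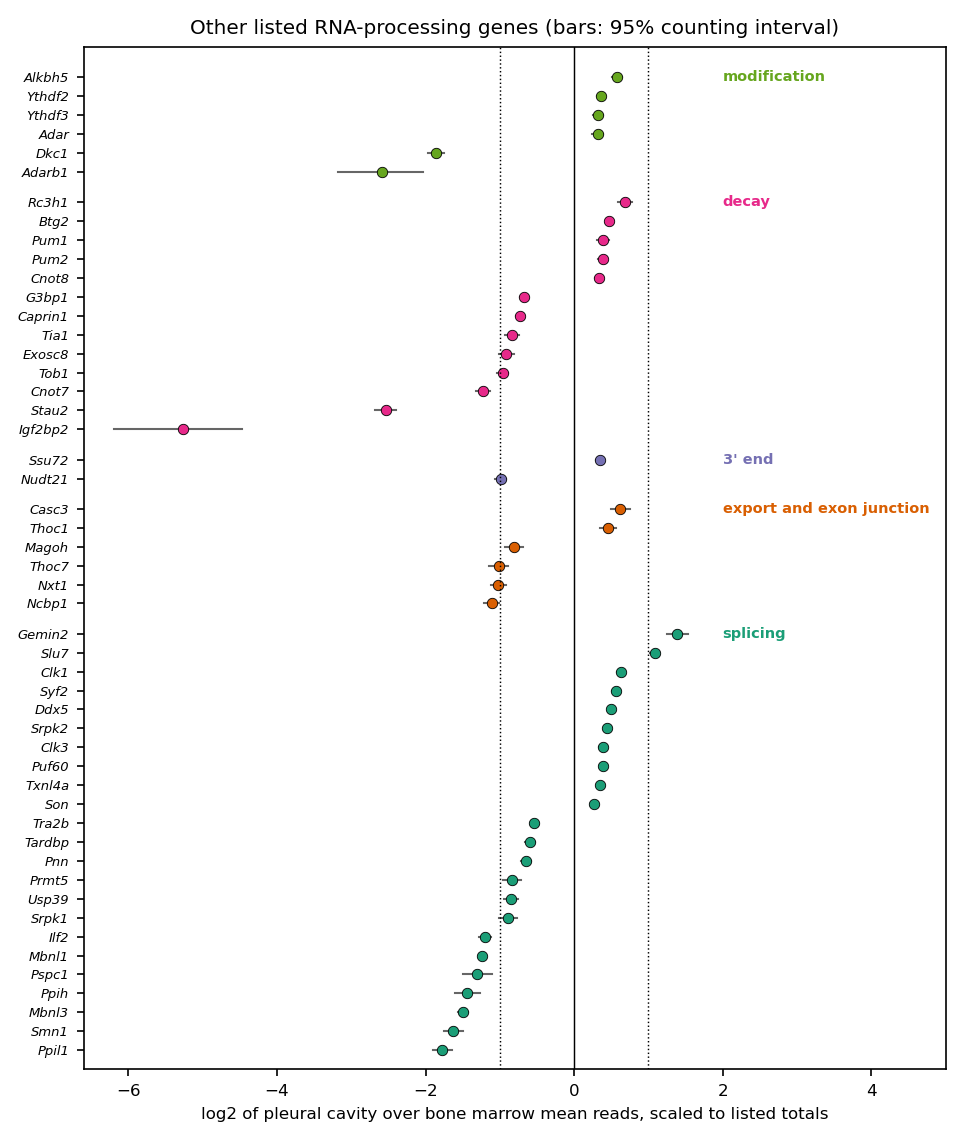
Log2 ratio of scaled mean reads, pleural cavity over bone marrow, of the 50 other listed RNA-processing genes by function (horizontal), with 95% counting intervals as bars and dotted lines at 2-fold. Each group holds genes on both sides of 0, 22 to the right and 28 to the left.

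Markers of other cells differed between the tissues. In bulk samples, fewer cells of a type and less RNA per cell cannot be told apart. The eosinophil genes Siglecf, Ccr3 and Gata1 had log2 ratios of 1.15, 1.54 and 1.11, while the granule genes Prg2 and Epx had -8.99 and -9.11 and Alox15 had -1.85, and Il5ra was not listed. The list took 0.802% of the listed reads in the pleural cavity and 6.81% in the bone marrow. All 6 listed genes had reads in both tissues. All 12 neutrophil and precursor markers were listed and lower in the pleural cavity, and took 11.5% of the listed reads in the bone marrow and 0.231% in the pleural cavity. In the bone marrow Ngp had the most reads of them, 263228.5 against 546.5 in the pleural cavity. Most of their pleural cavity reads fell on Retnlg, with 33927 mean reads there and 147022 in the bone marrow. The 8 proliferation markers were all lower too, with 0.0150% of the listed reads in the pleural cavity and 0.223% in the bone marrow. Rrm2, a gene of DNA synthesis, had 101.5 and 4290.5 mean reads. Basophil and mast cell markers, 6 of 6 listed and lower, took 0.00109% in the pleural cavity and 0.0968% in the bone marrow, where Prss34 had the most reads.

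Macrophage markers were listed 6 times of 7, with 4 higher and 2 lower, and took 0.957% of the listed reads in the pleural cavity and 0.896% in the bone marrow. Adgre1, whose product the sorts used, had the most reads in the pleural cavity and Lyz2 in the bone marrow. Adgre1, Csf1r, C1qb and C1qa had log2 ratios of 2.26, 1.94, 1.77 and 0.92, and Mrc1 and Lyz2 had -1.27 and -1.24. C1qa and C1qb had 2402 and 5065 mean reads in the pleural cavity and 939 and 1093 in the bone marrow. Mrc1 had 250.5 mean reads in the pleural cavity and 445.5 in the bone marrow. Of T and NK cell markers, 2 of 4 were listed, both lower, led by Nkg7 with 112 and 10432 mean reads, while Cd3e was not listed. They took 0.000903% of the listed reads in the pleural cavity and 0.0897% in the bone marrow. Of 4 B cell markers Ms4a1 alone was listed, with 366 mean reads in the pleural cavity and 107 in the bone marrow. The part of these cells in the values of the splicing and RNA-binding genes was not tested.

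**Figure D4:**
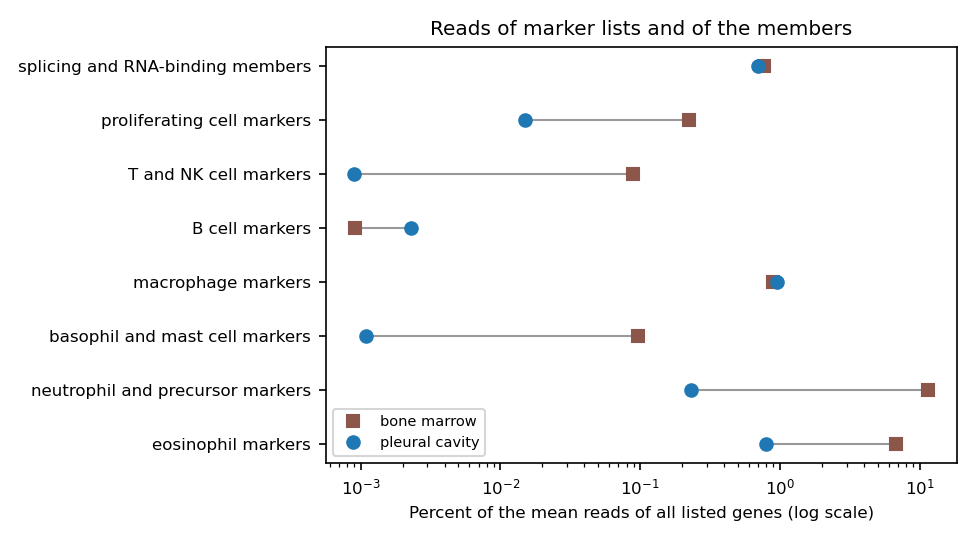
Percent of the mean reads of all listed genes (horizontal, log scale) that fell on each of the marker lists described and on the 47 members, in bone marrow (squares) and pleural cavity eosinophils (circles). Neutrophil and precursor markers differ most in absolute share, 11.5% against 0.231%, and the members took 0.776% and 0.693%.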

How the data were processed

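Bulk RNA-seq of eosinophils from 2 bone marrow and 2 pleural cavity samples was analysed. The authors trimmed reads with SOAPnuke, aligned them with HISAT2 2.1.0 (GRCm38) and Bowtie2 2.2.5, and estimated counts with RSEM 1.2.8. For the selection of the listed genes the study's methods name DESeq2, while the sample labels name DESeq. The deposited table gives the authors' mean of the estimated counts per tissue, not scaled for depth. It also holds fold changes, p-values and q-values of their own comparison, which were not used. Depth per library is unknown, and the per-sample columns left unused numbered 0.

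Mean reads were whole or a multiple of 0.5 in both tissues (tolerance 1e-06) for 74.2% of genes, as a mean of 2 libraries gives. They were scaled to the listed totals. Intervals are exact (Clopper-Pearson) 95% intervals on the mean reads times 2 libraries, rounded, and were checked on simulated data. Members and lists were chosen with earlier results of these data known. Named were the 10 members with the largest ratio each way among those with at least 100 mean reads in one tissue and, of other lists, the 5 largest absolute ratios with the same minimum. Without it, the 5 best-read members, the extremes of each sub-family and a fixed list were named. Other scalings, read filters, thresholds and lengths were tried. Coordinates and lengths are from GENCODE M21, an earlier release than the authors' on GRCm38. Calculations used scipy 1.17.1, numpy 2.4.6 and pandas 2.3.3 in Python 3.11.15, with figures from matplotlib 3.10.9. One marker list is not reported here.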

Additional observations from a re-analysis of the deposited data

How the results depend on the processing

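No paired analysis was possible because the table holds 1 mean per tissue, and for the same reason no library could be left out. The number of members over 2-fold higher was 3 and became 9 without scaling, 8 with a 1.5-fold and 1 with a 4-fold threshold. The number over 2-fold lower was 19 and became 9 without scaling, 29 with the median of well-read genes set to 0, 29 with a 1.5-fold and 7 with a 4-fold threshold. Without scaling, 30.5% of all listed genes were over 2-fold higher and 43.2% lower, beside 19.1% of the members each way. With the median at 0 the shares of all listed genes were 9.04% and 57.3%, beside 4.26% and 61.7% of the members. With the 20 best-read genes left out of the sums, with filters of 20 or 100 mean reads and without genes with divided reads, both counts stayed within 1.5 times. Scaling shifts all ratios alike, and the following values are given without scaling, without the 20 best-read genes, with the median of well-read genes at 0, and with the middle of the empty stretch at 0, the last chosen after seeing the data. The median log2 ratio of the members was -0.33, -0.97, -1.22 and -0.63. That of SR proteins was -0.32, -0.96, -1.20 and -0.61, of Sm and snRNP proteins -0.34, -0.98, -1.22 and -0.63, of Lsm proteins -0.58, -1.22, -1.47 and -0.88, of hnRNP proteins -0.47, -1.11, -1.35 and -0.77, and of poly(A) binding proteins -0.85, -1.49, -1.73 and -1.15. For Prpf genes it was 0.94, 0.30, 0.059 and 0.65, for Rbm genes 0.88, 0.24, 0.00084 and 0.59, and for Zc3h genes 1.0, 0.36, 0.12 and 0.71. Of the other RNA-processing genes, 22 were higher and 11 with the median at 0, and 15 were over 2-fold lower, which became 7 without scaling, 23 without the best-read genes, 27 with the median at 0 and 8 without divided reads. Levels per length of 8 of 32 named genes moved by over 1.5 times with the longest protein-coding transcript and of 24 with the median transcript length. Few reads limit the members under 100 mean reads, where counting intervals are wide.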

Other observations

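Transcripts that Zfp36 proteins are known to bind through AU-rich elements, a list of 31 genes, were listed 18 times, 12 higher and 6 lower in the pleural cavity. Their median log2 ratio was 0.66. Of the 18, 66.7% were thus higher, beside 42.5% of all listed genes. All 18 had at least 100 mean reads in one tissue, and of listed genes with as many 53.1% were higher, with a median of 0.34. Beyond 2-fold, 7 were higher and 6 lower (38.9% and 33.3%), beside 16.0% and 50.5% of all listed genes and 19.3% and 38.0% of those with at least 100 mean reads in one tissue. Dusp1, a phosphatase that ends MAP kinase signalling, was the best-read of them, with 269575 mean reads in the pleural cavity and 58829 in the bone marrow and a log2 ratio of 1.76. Cdkn1a, which encodes the cell cycle inhibitor p21 and whose transcript Rbm38 is also known to bind, had 4254.5 and 625.5 mean reads and a log2 ratio of 2.33. The chemokines Ccl3 and Ccl4 had log2 ratios of 2.19 and 2.2. Dusp1, Ccl3, Ccl4 and Tnf were named after their values were seen.

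The lower transcripts of that list were led by Vegfa, with 4 mean reads in the pleural cavity and 112 in the bone marrow and a log2 ratio of -5.25, and by Myc, with 240.5 and 2591 mean reads and a log2 ratio of -3.87. Bcl2, an inhibitor of apoptosis, had a log2 ratio of -2.85, Ier3 had -2.29 and Tnf had -2.02. Of the Zfp36 genes themselves, 0 of 3 were listed.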
